A study of Mus musculus with 3 samples.

Results

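The genes described here are 10 mouse homologs of genes at human type 1 diabetes risk loci, Ptpn22, Ubash3a, Ptpn2, Sh2b3, Tyk2, Bach2, Ikzf1, Ikzf3, Ifih1 and Clec16a, out of 32285 genes counted. They were taken by name, whatever their level, and all 10 were detected. Live CD45+ leukocytes had been sorted from pancreatic islets of female wild-type NOD mice aged 15 to 16 weeks, a strain that develops autoimmune diabetes spontaneously. Islets of 2 or 3 mice were pooled for each of 3 libraries of single cells. The 3 libraries form 1 group with no treated or control arm, so the comparisons are between cell classes of the same libraries. An inbred strain with 1 genotype shows levels of these genes but no effect of a risk allele. The 2 experiments behind the libraries are not assigned to libraries in the labels, so experiment and library cannot be told apart.

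Type 1 diabetes is an autoimmune disease in which T cells destroy the insulin-producing beta cells, and many of its risk loci lie at genes that set how strongly leukocytes respond. Ptpn22 and Ubash3a encode proteins that restrain signals from the antigen receptor. Ptpn2, Sh2b3 and Tyk2 act downstream of cytokine receptors, Ptpn2 and Sh2b3 as brakes and Tyk2 as a Janus kinase that starts the signal. Bach2, Ikzf1 and Ikzf3 encode DNA-binding proteins that steer lymphocyte development and differentiation. Ifih1 encodes MDA5, a cytosolic sensor of viral double-stranded RNA, and Clec16a encodes a protein linked to endosomal traffic and mitophagy.

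Cells with at least 1000 unique molecular identifiers (UMIs, each a counted RNA molecule) and under 10% mitochondrial UMIs were placed in 5 classes by raw UMIs of lineage genes, none of them among the 10. CD8 T cells had at least 1 Cd3e UMI, at least 2 of Cd8a plus Cd8b1 and none of Cd4. CD4 T cells had Cd3e and Cd4 but no Cd8a, Cd8b1 or Foxp3. Regulatory T cells (Treg) had Cd3e and Foxp3, B cells at least 2 Cd79a UMIs and no Cd3e, and macrophages at least 5 UMIs of C1qa plus C1qb, no Cd3e and at most 1 Cd79a UMI. The classes held 3258 CD8 T, 5858 CD4 T, 1671 Treg, 4936 B and 68 macrophage cells, and the macrophages came to 31, 10 and 27 in replicates 1, 2 and 3. The libraries held 5844 to 11566 barcodes and 33851381 to 80806452 UMIs in all, and replicate 1 was the shallowest with a median of 4230 UMIs per barcode against 6415 and 5521. Of 26947 barcodes, 59 occurred in more than 1 library, and 7 to 30 cells per library met the rules of both CD8 T and Treg.

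The labels of the classes were checked against markers that the rules did not use as well as those they did. All 7 macrophage markers used, among them Adgre1 and Csf1r, were detected in the macrophages and summed to 12786 to 15953 counts per 1000000 UMIs (CPM). In the same cells the 5 general T markers summed to 5.29 to 24.7 CPM and all 4 markers of NK and innate lymphoid cells were at 0. Endocrine markers summed there to 7.93 to 1372 CPM and dendritic-cell markers to 41.2 to 79.3 CPM. The CD8 T list reached 2812 to 4661 CPM in macrophages, nearly all of it the chemokine gene Ccl5, with Cd8b1 and Gzmk at 0. The 6 B markers were not absent from the T classes, since they stood at 3.22% to 10.8% of their B-cell level in CD8 T, 7.10% to 15.9% in CD4 T and 10.2% to 31.2% in Treg. In B cells the 6 B markers summed to 3786 to 4230 CPM and the 4 plasma-cell markers to 806 to 3787 CPM. The rule for B cells did not set plasma cells apart. A score of resemblance to artificial doublets marked 31.2% of Treg cells, 10.1% of CD4 T, 7.80% of CD8 T, 1.46% of B and 0 macrophages. All cells were kept in the values below. Calls that changed without the marked cells are given beside the gene.

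Levels are CPM of the UMIs summed over all cells of a class in a library, so each class had 3 sums. A difference is called where the adjusted p of edgeR's quasi-likelihood test, with Benjamini-Hochberg adjustment over all 12136 genes tested and the library as a block, was under 0.05. The p-values rest on the spread that is left between the sums of these 3 libraries once the block removes shifts of a whole library. That spread was estimated over all classes in 1 fit. Because the assay reads the 3' ends of transcripts and gene lengths were not used, levels are compared between classes for 1 gene and not between genes. The plot of levels by library shows each sum.

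**Figure D1:**
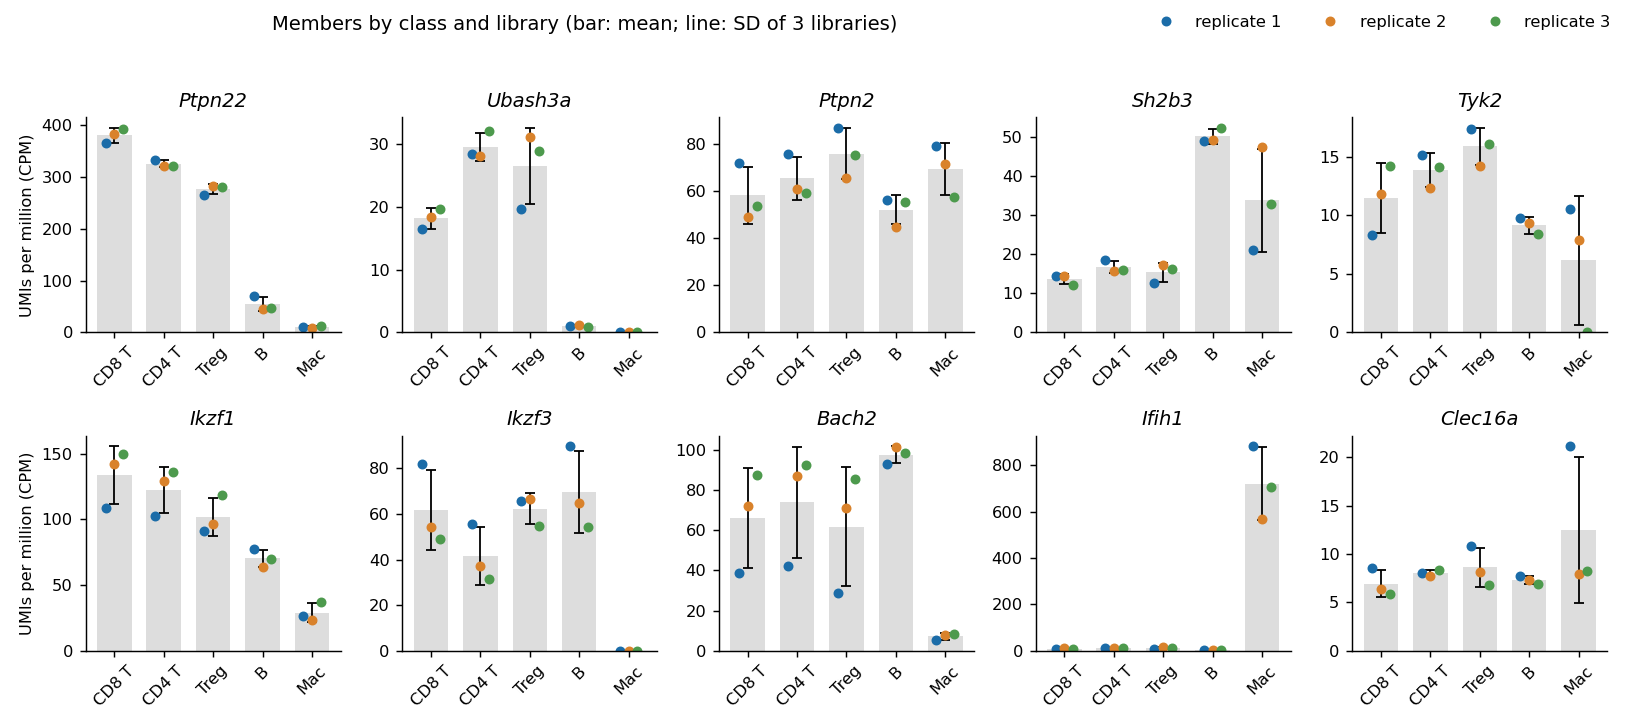
CPM of each of the 10 genes in the 5 cell classes. Points are the 3 libraries, bars the mean, and lines 1 SD. Ptpn22 was high in the 3 T classes, Sh2b3 and Bach2 were highest in B cells, and Ifih1 lay between 571 and 883 CPM in macrophages and at most 15.3 CPM elsewhere.

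Over all genes, far more differed between T classes and B cells or macrophages than between T classes, and the 10 genes are read against those shares. Between T classes, 2 of 10 were called for CD8 T against CD4 T, where 10.4% of all genes were called, 3 for CD8 T against Treg (15.4% of all genes) and 1 for CD4 T against Treg (5.72%). Against B cells, 6 of 10 were called for CD8 T (48.8% of all genes), 8 for CD4 T (51.6%) and 8 for Treg (48.4%). Against macrophages, 7 of 10 were called for CD8 T (36.8% of all genes), 7 for CD4 T (35.7%), 7 for Treg (33.7%) and 6 for B cells (35.9%). The median log2 difference of the 10 genes was 0.23, 0.33 and 0.32 for CD8 T, CD4 T and Treg minus B, beside 0.04, 0.02 and 0.02 over all genes. Against macrophages the medians of the 10 were 1.74, 1.68, 1.56 and 1.12 for CD8 T, CD4 T, Treg and B, with the median over all genes at 0.53 to 0.56.

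Ptpn22, the phosphatase gene that dampens T-cell receptor signals, was higher in the 3 T classes than in B cells and macrophages. Its level in CD8 T cells was 365, 384 and 394 CPM in replicates 1, 2 and 3. In CD4 T cells it was 333, 321 and 322 CPM, and in Treg 266, 283 and 281 CPM. These ranges did not overlap, and the order CD8 T, CD4 T, Treg was the same in each library. B cells had 70.2, 45.8 and 46.7 CPM, a level below that of every T-cell sum. Macrophages had 6 UMIs in all, or 7.93 to 12.4 CPM.

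The CD8 T level of Ptpn22 was higher than that of Treg by 0.64 ± 0.13 (SE) on the log2 scale (adjusted p = 0.00348 by edgeR's quasi-likelihood test), but without replicate 2 the adjusted p was 0.0679 and without replicate 3 it was 0.0741. The neighbours in the order did not pass: CD8 T minus CD4 T was 0.33 ± 0.13 (edgeR adjusted p = 0.136) and CD4 T minus Treg was 0.31 ± 0.13 (edgeR adjusted p = 0.228). Without replicate 1, CD8 T minus CD4 T was 0.36 and passed (edgeR adjusted p = 0.0253). Against B cells the log2 differences were 2.80 ± 0.14 in CD8 T, 2.47 ± 0.14 in CD4 T and 2.16 ± 0.14 in Treg, with edgeR adjusted p from 3.80e-10 to 7.34e-09. The pooled level was 35.8 times that of macrophages in CD8 T cells, with a 95% counting interval of 16.4 to 97.5, and 4.98 times in B cells with an interval of 2.28 to 13.6. Such intervals cover counting error only.

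The B-cell level of Ptpn22 was set beside those of T markers, in cells that the class rule had already required to lack Cd3e. Ptpn22 in B cells stood at 14.3% to 21.1% of its CD4 T level. Cd3d, Cd3g, Trac and Lat stood at 2.22% to 5.85% and Cd2 at 13.1% to 26.6%. Ptpn22 was thus above 4 of the 5 markers and within the range of Cd2. Cd2 itself lay well above the other 4 markers, and whether B cells had Cd2 RNA of their own was not tested. The part of T-cell RNA in the B-cell level was not tested. In cells thinned to 2000 UMIs each, which removes differences in depth, a Ptpn22 UMI was found in 52.4% ± 2.15 (SD, n = 3) of CD8 T cells, 45.6% ± 5.71 of CD4 T cells and 44.0% ± 4.42 of Treg. The shares in the other classes were 8.99% ± 2.20 of B cells and 1 of 67 macrophages.

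Ubash3a, which encodes a suppressor of T-cell receptor signaling also called STS-2 or TULA, was found mostly in T cells. CD4 T cells had 28.4, 28.1 and 32.1 CPM, Treg 19.6, 31.0 and 28.9 CPM, and CD8 T cells 16.4, 18.3 and 19.7 CPM. Each CD8 T value lay below the value of the other T classes in its library. B cells had 0.947, 1.14 and 0.919 CPM, or 35 UMIs in all, and macrophages had 0 among 558022 UMIs.

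The B-cell level of Ubash3a was 2.86% to 4.04% of the CD4 T level. This lay within the range of Cd3d, Cd3g, Trac and Lat in B cells given above and below that of Cd2. The part of T-cell RNA in it was not tested. CD4 T exceeded B cells by 4.72 ± 0.17 on the log2 scale, Treg by 4.51 ± 0.18 and CD8 T by 4.12 ± 0.18 (edgeR adjusted p from 1.23e-10 to 6.07e-10). With a floor of 3 UMIs over the macrophage group, which is 5.38 CPM, Ubash3a was at least 5.59-fold higher in CD4 T cells, at least 5.32-fold in Treg and at least 3.46-fold in CD8 T cells. The level of B cells was below that floor. A UMI was found in 6.06% ± 0.663 of thinned CD4 T cells, 10 of 4910 B cells and 0 of 67 macrophages, which allows a share of up to 4.48%.

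CD8 T cells had less Ubash3a than CD4 T cells by 0.60 on the log2 scale (log2 difference -0.60, edgeR adjusted p = 0.00385). Without replicate 2 the edgeR adjusted p was 0.0631, without replicate 3 it was 0.124, and without the library block it was 0.123. Against Treg the log2 difference of -0.39 ± 0.12 (edgeR adjusted p = 0.0486) was lost without replicate 2 or 3, without the block and under 4 other settings.

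The promoters of Ptpn22 and Ubash3a are shown because both were higher in the T classes than in B cells and macrophages. Their order among the T classes differed. The promoter of Ifih1 is shown because its level differed most between classes. Each is the RefSeq window (GRCm38.p6) of 250 bases before and 50 after a start site, on the strand of the gene, and 8 of the 10 genes had an entry. No entry was given for Ptpn2 and Ikzf3. Capitals mark matches, on either strand, to GAAANNGAAA (an interferon-response element pattern), TTCNNNGAA (a STAT pattern), TGTGGT (a RUNX pattern, printed ACCACA where it lies on the other strand) and CCGGAA (an ETS pattern).
Ptpn22, chr3:103860027-103860326, plus strand: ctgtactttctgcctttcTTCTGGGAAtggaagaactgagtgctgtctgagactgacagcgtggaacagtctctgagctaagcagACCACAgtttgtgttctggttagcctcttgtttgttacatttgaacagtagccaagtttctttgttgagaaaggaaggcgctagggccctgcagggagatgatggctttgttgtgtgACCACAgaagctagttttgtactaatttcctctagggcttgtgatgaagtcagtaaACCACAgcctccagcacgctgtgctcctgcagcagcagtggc
Ubash3a, chr17:31207816-31208115, plus strand: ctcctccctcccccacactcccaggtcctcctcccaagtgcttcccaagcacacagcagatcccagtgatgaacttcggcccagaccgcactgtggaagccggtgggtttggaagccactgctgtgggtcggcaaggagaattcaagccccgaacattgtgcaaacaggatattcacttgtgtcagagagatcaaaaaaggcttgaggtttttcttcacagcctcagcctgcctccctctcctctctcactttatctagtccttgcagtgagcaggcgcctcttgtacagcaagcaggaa
Ifih1, chr2:62646206-62646505, minus strand: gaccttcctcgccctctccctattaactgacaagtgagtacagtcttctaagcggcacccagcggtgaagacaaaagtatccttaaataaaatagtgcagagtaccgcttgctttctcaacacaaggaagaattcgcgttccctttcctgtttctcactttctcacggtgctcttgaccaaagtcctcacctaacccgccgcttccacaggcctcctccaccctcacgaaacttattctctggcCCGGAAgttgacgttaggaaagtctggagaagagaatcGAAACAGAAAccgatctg
Ptpn22 had a second RefSeq window, chr3:103859545-103859844, around the start of the annotated gene, which held 0 of the 4 patterns. The Ptpn22 window shown held 1 STAT pattern and 3 RUNX patterns, the Ubash3a window held 0 of the 4 patterns, and the Ifih1 window held 1 interferon-response pattern, 32 bases after the start site, and 1 ETS pattern. Of 32851 promoter windows, 3.44% held the interferon-response pattern, 8.30% the STAT pattern, 16.8% the RUNX pattern and 14.9% the ETS pattern. These are matches of letters only, and no binding was measured.

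The Ptpn22 gene lies at chr3:103859795-103912247 on the plus strand (GRCm38, GENCODE M21). Inside it, on the same strand, the annotation places the intronic transcripts Gm15472 (chr3:103863166-103864423) and Gm43065 (chr3:103864706-103866797). Gm15472 had the pattern most like that of Ptpn22, with a Pearson r of 0.996 over the 15 sums, and averaged 43.7 CPM in CD8 T, 38.5 in CD4 T, 32.3 in Treg, 6.13 in B cells and 0 in macrophages. UMIs of the 2 overlapping genes cannot be assigned apart with certainty. The genes next in likeness to Ptpn22 were Itm2a (r = 0.991) and Dgka (r = 0.989), and those nearest to Ubash3a were Chst2 (r = 0.997), Penk (r = 0.996), which encodes proenkephalin, and Zap70 (r = 0.990), the kinase gene of the T-cell receptor. The 15 sums share 3 libraries and 5 classes, so a high r here says that a gene followed the same classes.

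The other genes of antigen-receptor signaling were described by a fixed list of 15. Against B cells, 9 were higher and 3 lower in CD8 T, 10 and 3 in CD4 T, and 11 and 3 in Treg, with list medians of 0.80, 1.24 and 0.84. Over all 12136 genes, 3216 were higher and 2701 lower in CD8 T, 3307 and 2957 in CD4 T, and 3146 and 2730 in Treg. In CD4 T cells Zap70 was higher by 4.56 ± 0.12 and the adaptor gene Lat by 4.26 ± 0.15. Ptpn6, which encodes the phosphatase SHP-1, had a log2 difference of -2.12 ± 0.20 and the kinase gene Csk one of -0.98 ± 0.14 (all 4 with edgeR adjusted p of at most 3.77e-05). Between T classes, 1 of the 15 was higher and 5 were lower in CD8 T than in CD4 T, beside 526 and 738 of all genes. Sla2 was higher by 0.80 ± 0.12. Ubash3b, the paralog of Ubash3a, had a log2 difference of -0.62 ± 0.17 and Sla one of -0.61 ± 0.14 (edgeR adjusted p of at most 0.0236 for these 3 genes).

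The plot of T-cell differences from B cells sets out the 10 genes on 1 scale. Ubash3a and Ptpn22 were at the top, Ifih1 next, and Sh2b3 at the bottom.

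**Figure D2:**
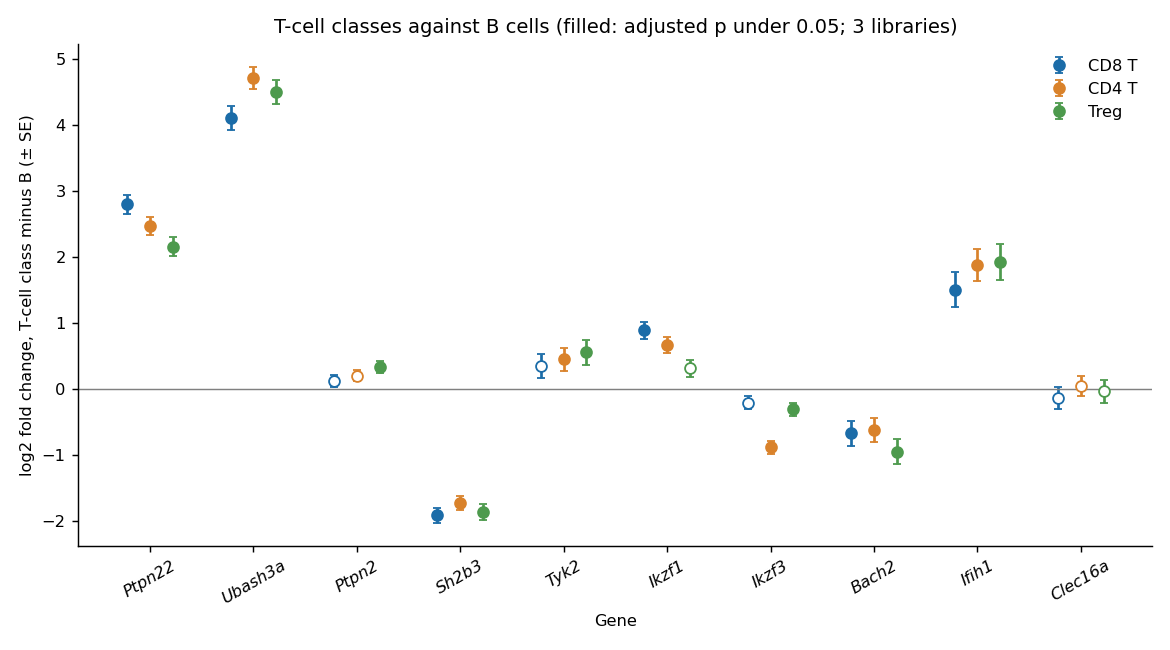
Log2 difference of each T class minus B cells, with bars of 1 SE, for the 10 genes. Filled points passed the test. Ubash3a stood at 4.12 to 4.72 and Sh2b3 at -1.92 to -1.73, and Clec16a passed in none of the 3 comparisons.

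Sh2b3, which encodes the adaptor LNK, had the opposite pattern to Ptpn22. B cells had 49.0, 49.3 and 52.5 CPM. CD8 T cells had 14.4, 14.5 and 12.1 CPM, CD4 T cells 18.7, 15.8 and 15.9, and Treg 12.6, 17.2 and 16.2. The values of the T classes overlapped one another and lay below those of B cells in each library. The log2 difference from B cells was -1.92 ± 0.11 in CD8 T, -1.73 ± 0.11 in CD4 T and -1.87 ± 0.12 in Treg (edgeR adjusted p from 2.07e-09 to 6.39e-09).

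Sh2b3 in the T classes was set beside the B markers found there. Where cells with a UMI that marks another class were left out, the differences widened to -2.27 ± 0.15, -2.32 ± 0.15 and -2.76 ± 0.18, and without likely doublets that of Treg was -2.71 ± 0.15. CD8 T minus Treg, at -0.05 with all cells, then became 0.56 and passed (edgeR adjusted p = 0.0456). Sh2b3 stood at 25.7% to 34.9% of its B-cell level in Treg before those steps, beside the 10.2% to 31.2% of the B markers. Macrophages had 21.1, 47.6 and 33.0 CPM from 18 UMIs, between the T classes and B cells in each library. The calls of macrophages against CD8 T, CD4 T, Treg and B cells (edgeR adjusted p = 0.0120, 0.0291, 0.0184 and 0.0474) were each lost when replicate 2 or 3 was left out, with edgeR adjusted p of 0.0538 to 0.222, and that against B cells also without replicate 1. In that order, they held under 7, 6, 8 and 3 of 13 alternative settings. The pooled B-cell level was 1.55 times that of macrophages, with a counting interval of 0.980 to 2.63. The genes most like Sh2b3 were Gpd2 (r = 0.960), Timm10 (r = 0.939) and Btk (r = 0.931), the last of which encodes a kinase of the B-cell receptor.

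Ptpn2, which encodes a phosphatase that acts on Janus kinases and STAT proteins, was found in all classes at like levels. The class means ran from 75.9 ± 10.7 CPM (SD, n = 3) in Treg through 69.4 ± 10.9 in macrophages, 65.4 ± 9.08 in CD4 T and 58.2 ± 12.0 in CD8 T to 52.1 ± 6.33 in B cells. None of the 4 pairs of neighbours in this order passed the test. The ends of the order differed: Treg had 86.9, 65.6 and 75.3 CPM and B cells 56.2, 44.8 and 55.4 CPM, a log2 difference of 0.33 (edgeR adjusted p = 0.00638). Without replicate 2 the edgeR adjusted p was 0.0870, and without the library block it was 0.111. CD4 T minus B, which did not pass at 0.20 (edgeR adjusted p = 0.0676), passed without likely doublets at 0.24 (edgeR adjusted p = 0.0432). It also passed without TMM scaling (0.32, edgeR adjusted p = 0.00785) and with DESeq2 (0.24, DESeq2 adjusted p = 0.0272).

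Tyk2, the Janus kinase gene of the interferon and interleukin-12 receptors, had few UMIs per cell. Treg had 17.4, 14.2 and 16.1 CPM, CD4 T cells 15.2, 12.3 and 14.2, CD8 T cells 8.30, 11.8 and 14.3, and B cells 9.76, 9.31 and 8.37. Treg and CD4 T cells were above B cells in every library. The log2 differences were 0.55 (edgeR adjusted p = 0.0236) and 0.45 (edgeR adjusted p = 0.0399), and both calls were lost without replicate 2 or 3 and without the block. Macrophages had 3 UMIs, and the pooled CD4 T level was 2.52 times theirs with an interval of 0.860 to 12.3, so no difference was detectable at this depth.

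Of the 17 other genes of cytokine-receptor signaling in the fixed list, 13 were higher and 3 lower in CD8 T than in B cells, 12 and 3 in CD4 T, and 9 and 3 in Treg, in comparisons that called 48.8%, 51.6% and 48.4% of all genes. Stat5a was higher by 2.10 ± 0.14, 2.26 ± 0.13 and 2.45 ± 0.14. Cish, a STAT5-induced inhibitor, was higher in CD4 T by 2.62 ± 0.17 and in Treg by 3.49 ± 0.17. Sh2b2, an adaptor of the same family as Sh2b3, was lower in the 3 T classes, with log2 differences of -3.71 ± 0.30 in CD8 T, -3.04 ± 0.25 in CD4 T and -2.34 ± 0.27 in Treg. All of these had edgeR adjusted p of at most 3.39e-06.

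Bach2, a repressor that holds back effector differentiation in T cells and plasma-cell differentiation in B cells, was highest in B cells. Their levels were 93.2, 102 and 98.3 CPM. CD8 T cells had 38.8, 72.3 and 87.6 CPM, CD4 T cells 42.0, 87.1 and 92.5, and Treg 28.7, 71.3 and 85.6. In each T class replicate 1 was far below replicates 2 and 3, whereas B cells showed no such gap. The log2 difference from B cells was -0.68 ± 0.19 in CD8 T (edgeR adjusted p = 0.00687), -0.62 ± 0.18 in CD4 T (edgeR adjusted p = 0.00978) and -0.95 ± 0.19 in Treg (edgeR adjusted p = 7.69e-04). Without replicate 1 these shrank to -0.31, -0.23 and -0.54 and still passed. None of the 3 calls held without the library block, and that of CD4 T was also lost with the study's cell limits (-0.52, edgeR adjusted p = 0.0601).

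Replicate 1 also had the largest proportion of CD8 T cells with a UMI of Pdcd1, the gene of the inhibitory receptor PD1, with 252 such cells against 329 without, where replicates 2 and 3 had 369 against 850 and 480 against 978. In CD4 T cells that proportion was not higher in replicate 1, with 299 against 616 cells, 738 against 1378 and 966 against 1861. Their part in the low Bach2 of that library was not tested. Macrophages had 4 Bach2 UMIs, and the pooled B-cell level was 13.7 times theirs, with an interval of 5.34 to 50.2. The genes most like Bach2 were Cd55 (r = 0.966), the ribosomal protein gene Rpl12 (r = 0.965) and Knop1 (r = 0.963).

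Ikzf1, which encodes Ikaros, was higher in T cells than in B cells and lowest in macrophages. CD8 T cells had 108, 142 and 150 CPM, CD4 T cells 103, 129 and 136, Treg 90.9, 96.1 and 119, and B cells 77.2, 64.0 and 69.8. Every T-cell value was above the B-cell value of its library. The log2 difference from B cells was 0.89 in CD8 T (edgeR adjusted p = 2.60e-05) and 0.66 in CD4 T (edgeR adjusted p = 3.52e-04), and Treg did not pass (edgeR adjusted p = 0.0537). Treg did pass without replicate 1 (0.50, edgeR adjusted p = 7.90e-04) and without TMM scaling (0.52, edgeR adjusted p = 0.00255). CD8 T exceeded Treg by 0.58 (edgeR adjusted p = 0.00533), a call lost without replicate 2, without replicate 3 and without the block (adjusted p of 0.166, 0.0765 and 0.0847). Macrophages had 26.4, 23.8 and 37.1 CPM, and the pooled CD8 T level was 4.59 times theirs.

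Ikzf3, which encodes Aiolos, was lower in CD4 T cells than in the other lymphocyte classes. CD8 T cells had 81.9, 54.5 and 48.9 CPM, CD4 T cells 55.8, 37.4 and 31.6, Treg 65.6, 66.8 and 54.6, and B cells 89.8, 65.0 and 54.5. Replicate 1 was the highest library in CD8 T, CD4 T and B cells, and within each library CD4 T was the lowest of the 4 lymphocyte classes. CD8 T exceeded CD4 T by 0.68 ± 0.10 on the log2 scale (edgeR adjusted p = 7.52e-04), which held when any 1 library was left out but not without the block (adjusted p = 0.187). CD4 T minus B was -0.89 (edgeR adjusted p = 7.25e-06) and held under all 13 alternatives.

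The call of CD4 T below Treg for Ikzf3 (log2 difference -0.58, edgeR adjusted p = 0.00586) was lost without replicate 2 or 3, with adjusted p of 0.272 and 0.213. Treg minus B was -0.31 ± 0.10 (edgeR adjusted p = 0.0252) and was lost whichever library was left out, with -0.16 without replicate 1. It was also lost without likely doublets (-0.24, edgeR adjusted p = 0.0806), without TMM scaling, without the block and with cells thinned before the classes were set. Macrophages had 0 Ikzf3 UMIs, and against the floor of 3 UMIs the gene was at least 12.9-fold higher in B cells, at least 11.3-fold in Treg, at least 10.5-fold in CD8 T and at least 6.90-fold in CD4 T. The genes most like Ikzf3 were Lax1 (r = 0.988), Ripor2 (r = 0.985) and Gm19585 (r = 0.985).

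The fixed list of 12 relatives and lineage factors gave a frame for these 3 genes. Between CD4 T and Treg, 2 were higher in CD4 T and 4 in Treg, beside 277 and 417 of all genes: the naive-cell factors Lef1 (1.17 ± 0.19) and Tcf7 (1.09 ± 0.14) on one side, and the Ikaros relatives Ikzf4 (-1.91 ± 0.12) and Ikzf2 (-2.15 ± 0.17) on the other (edgeR adjusted p of at most 0.00164). In the same comparison Ikzf3 was also higher in Treg, and Ikzf1 did not pass (0.35, edgeR adjusted p = 0.138) but passed without likely doublets (0.49, edgeR adjusted p = 0.0388). Ikzf1 also passed there without replicate 1 (0.42, edgeR adjusted p = 0.0125). Bach1, the paralog of Bach2, averaged 213 CPM in macrophages and 22.2 to 30.8 CPM in the lymphocyte classes, whereas Bach2 was lowest in macrophages.

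Ifih1 was the gene of the 10 that marked macrophages. Their levels were 883, 571 and 709 CPM from 167, 72 and 172 UMIs. CD4 T cells had 12.4, 11.7 and 12.1 CPM, Treg 8.69, 15.3 and 13.3, CD8 T cells 5.83, 10.3 and 8.62, and B cells 2.37, 3.84 and 2.55. The highest value outside macrophages, in Treg, was 2.68% of the macrophage value of its library. The log2 difference from macrophages was -6.32 ± 0.23 for CD8 T, -5.95 for CD4 T, -5.90 ± 0.23 for Treg and -7.83 for B cells, with edgeR adjusted p from 2.38e-11 to 1.17e-10. As a ratio of pooled levels, macrophages had 61.6 times the level of CD4 T cells (counting interval 53.9 to 70.2) and 244 times that of B cells (196 to 305).

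The signal was spread unevenly over the few macrophages. An Ifih1 UMI was found in 21 of 31 macrophages in replicate 1, 5 of 10 in replicate 2 and 19 of 27 in replicate 3, or 66.2% of all 68. In cells thinned to 2000 UMIs, the share was 47.9% ± 12.6 (SD, n = 3) of macrophages and 0.349% ± 0.225 of B cells. The median macrophage had 3 Ifih1 UMIs and the highest 39, and that 1 cell gave 54.2% of the 72 UMIs of replicate 2. The 5 highest cells gave 35.0% of the 411 UMIs of the class. The doublet score marked 0 of the 68 cells, so its removal step left the macrophage sums unchanged and cannot bear on their Ifih1 level. None of the 13 alternatives, that step included, changed the Ifih1 calls against macrophages. However, the limits stated by the study left 18, 1 and 4 macrophages in replicates 1, 2 and 3. Of these, only replicate 1 held the 10 cells a sum required.

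**Figure D3:**
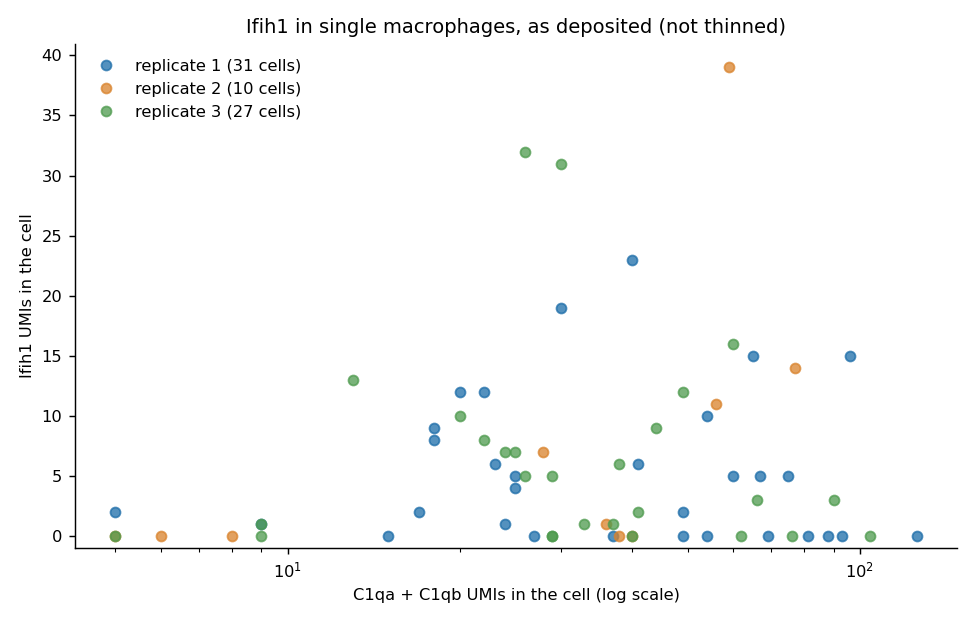
Ifih1 UMIs against C1qa plus C1qb UMIs in each of the 31, 10 and 27 macrophages of the 3 libraries. Each point is a cell. Cells with 0 Ifih1 UMIs occurred beside cells with up to 39 in the same library.

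Ifih1 outside macrophages was compared with macrophage RNA carried into other cells. In CD4 T cells Ifih1 stood at 1.40% to 2.05% of its macrophage level. Of the 7 macrophage markers there, C1qa, C1qb and C1qc stood at 0 to 0.600% and Adgre1 at 0 to 0.287%. Lyz2 stood at 0.0332% to 0.766%, Csf1r at 0.0674% to 1.29% and Cd68 at 1.12% to 2.23%. In B cells Ifih1 stood at 0.268% to 0.672%, the same C1q genes at 0 to 0.228% and Adgre1 at 0.374% to 0.717%. Csf1r stood there at 0.273% to 0.491%, Lyz2 at 0.103% to 0.662% and Cd68 at 0.920% to 1.99%. Ifih1 in CD4 T cells was thus above the range of every one of these markers but Cd68, which it overlapped. In B cells it was above the C1q genes, overlapped Adgre1, Csf1r and Lyz2 and was below Cd68. In Treg Ifih1 stood at 0.985% to 2.68%. It overlapped Adgre1 (0 to 2.22%), Csf1r (0.418% to 1.99%), Lyz2 (0.110% to 1.38%) and Cd68 (1.40% to 3.36%) there. In CD8 T Ifih1 stood at 0.661% to 1.81% and overlapped Csf1r (0.192% to 1.01%) and Cd68 (1.46% to 2.75%). It was above the other markers in both classes. The part of macrophage RNA in Ifih1 outside macrophages was not tested. The T classes were above B cells in Ifih1 by 1.51 ± 0.27 in CD8 T, 1.88 in CD4 T and 1.93 in Treg on the log2 scale (edgeR adjusted p = 2.41e-04, 1.19e-05 and 2.47e-05). Where cells with UMIs of another class were left out, these were 1.89 ± 0.23, 2.56 ± 0.21 and 2.47 ± 0.24. With cells thinned before the classes were set, CD8 T minus B was 1.36 ± 0.62 and did not pass (edgeR adjusted p = 0.0840). The CD4 T and Treg calls against B cells held under all 13 alternatives.

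Other RNA-sensing genes followed Ifih1 in part. Of the 9 in the fixed list, 5 were lower in CD8 T than in macrophages, 6 in CD4 T, 6 in Treg and 5 in B cells, and 1 was higher in B cells, where 1851, 1817, 1698 and 1870 of all 12136 genes were lower. The list medians were -0.85, -0.99, -1.05 and -1.11, beside 0.53 to 0.56 over all genes. Isg15, an interferon-induced ubiquitin-like modifier, had log2 differences of -3.53 ± 0.30, -3.42 ± 0.30, -3.32 ± 0.30 and -4.98 ± 0.32. Dhx58, which encodes LGP2 and is a relative of Ifih1, had -2.71 ± 0.51, -2.95 ± 0.52, -2.36 ± 0.50 and -2.65 ± 0.51 (edgeR adjusted p of at most 0.00170 for both genes). The genes most like Ifih1 over the 15 sums were Atp6v0c (r = 0.990), Itpripl2 (r = 0.987) and Bach1 (r = 0.986).

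Clec16a, the endosomal gene, passed in no comparison between classes. The class means were 6.94 ± 1.40 CPM in CD8 T, 8.05 ± 0.308 in CD4 T, 8.61 ± 2.06 in Treg, 7.34 ± 0.413 in B cells and 12.4 ± 7.54 in macrophages (SD, n = 3). The macrophage mean rested on 7 UMIs and on replicate 1, with 21.1 CPM against 7.93 and 8.24. Of 7 partner, neighbour and mitophagy genes, 3 were higher and 2 lower in CD8 T than in B cells, 2 and 2 in CD4 T, and 1 and 2 in Treg. These comparisons called 48.8%, 51.6% and 48.4% of all genes. Ciita, the master regulator of MHC class II genes and a neighbour of Clec16a, was lower than in B cells. Its log2 differences were -3.50 ± 0.22 in CD8 T, -2.70 ± 0.19 in CD4 T and -1.93 ± 0.20 in Treg. Rnf41, a ubiquitin ligase partner, was at -0.78 ± 0.15, -0.80 ± 0.14 and -0.71 ± 0.15 (edgeR adjusted p of at most 0.00118 for Ciita and Rnf41). Pink1 was higher than in B cells by 0.62 ± 0.17 in CD8 T, 0.87 ± 0.16 in CD4 T and 0.56 ± 0.17 in Treg. Socs1 was higher by 0.86 ± 0.26 in CD8 T and 0.65 ± 0.26 in CD4 T (edgeR adjusted p of at most 0.0487 for Pink1 and Socs1).

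The study's interest in PD1 led to a second comparison inside the T classes. Cells with at least 1 UMI of Pdcd1 were set against all cells of the same class with none, a reference that can hold cells whose Pdcd1 RNA was not caught. The sums held 252 to 480 Pdcd1-positive and 329 to 978 Pdcd1-negative CD8 T cells per library, and 299 to 966 and 616 to 1861 CD4 T cells. The Pdcd1-positive cells were the deeper ones in each library and class, with medians of 4720 to 8834 UMIs per cell against 4519 to 7336, and the part of depth in the differences was not tested. Of the 10 genes, 2 were called in CD8 T cells, where 13.5% of the 10975 genes tested were called, and 3 in CD4 T cells, where 16.1% were. The medians of the 10 were 0.03 and -0.10, beside 0.01 in both classes over all genes. Without TMM scaling the medians over all genes were 0.17 in both classes, so small differences are read against that shift. Without the library block none of these 5 calls held (edgeR adjusted p from 0.208 to 0.773), and the differences themselves were -0.51 for Bach2 and 0.79 for Ikzf3 in CD8 T and -0.90, 0.77 and 0.35 for Bach2, Ikzf3 and Ptpn22 in CD4 T.

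**Figure D4:**
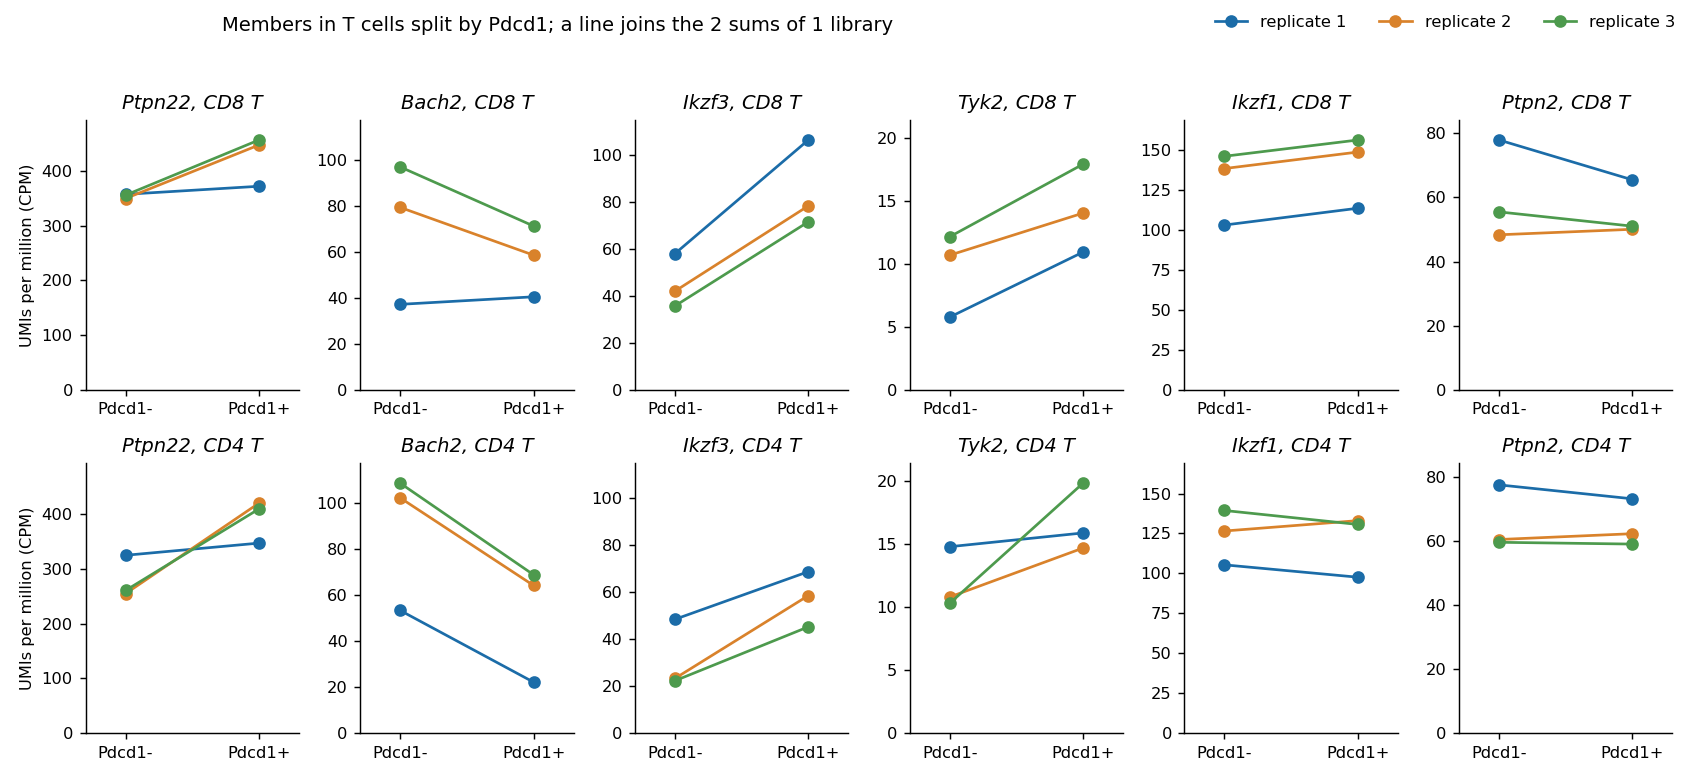
CPM in Pdcd1-negative (Pdcd1-) and in Pdcd1-positive (Pdcd1+) cells for 6 genes in CD8 T and CD4 T cells. Lines join the sums of a library. Ikzf3 was higher in Pdcd1-positive cells in each library of both classes, and Bach2 was lower in each library of CD4 T cells and in replicates 2 and 3 of CD8 T cells.

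Bach2 was lower in Pdcd1-positive cells. In CD4 T cells it was at 53.3, 102 and 109 CPM in Pdcd1-negative cells of replicates 1, 2 and 3 and at 22.1, 64.2 and 68.9 CPM in Pdcd1-positive cells. In CD8 T cells the values were 37.2, 79.4 and 97.1 CPM against 40.5, 58.6 and 71.3 CPM. The groups overlapped in both classes, with replicate 1 the lowest of each, and within libraries Bach2 was lower in 3 of 3 in CD4 T and in 2 of 3 in CD8 T, replicate 1 being the exception. The log2 differences were -0.93 ± 0.12 in CD4 T (edgeR adjusted p = 1.87e-04) and -0.49 ± 0.13 in CD8 T (edgeR adjusted p = 0.0221). The CD4 T call held when any 1 library was left out. The CD8 T call was lost without replicate 2 (-0.36, edgeR adjusted p = 0.306), without replicate 3 (-0.37, edgeR adjusted p = 0.372), and without TMM scaling (-0.32, edgeR adjusted p = 0.100). It was also lost with cells thinned before the classes were set (-0.55, edgeR adjusted p = 0.562) and with the study's cell limits (-0.64, edgeR adjusted p = 0.0809).

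Ikzf3, which encodes Aiolos, was higher in Pdcd1-positive cells, at 106, 78.3 and 71.6 CPM against 58.0, 42.0 and 35.7 CPM in CD8 T cells. In CD4 T cells it was at 68.7, 58.5 and 45.2 CPM against 48.4, 23.2 and 22.2 CPM. It was higher in each library of both classes, without overlap in CD8 T cells, while in CD4 T cells the Pdcd1-negative sum of replicate 1 lay above the Pdcd1-positive sum of replicate 3. The log2 differences were 0.77 ± 0.11 (edgeR adjusted p = 5.09e-04) and 0.83 ± 0.11 (edgeR adjusted p = 2.40e-04), and both held when any 1 library was left out. When each cell was thinned before the classes were set, the CD8 T difference was 0.95 and still passed, and the CD4 T difference was 0.63 (edgeR adjusted p = 0.0516).

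Ptpn22 was higher in Pdcd1-positive cells of CD4 T. It was at 325, 255 and 261 CPM in Pdcd1-negative cells and at 348, 421 and 410 CPM in Pdcd1-positive cells, higher in 3 of 3 libraries with no overlap but by little in replicate 1. The log2 difference was 0.34 ± 0.09 (edgeR adjusted p = 0.0193), and the call was lost without replicate 2 (0.25, edgeR adjusted p = 0.340) and without replicate 3 (0.28, edgeR adjusted p = 0.347). It was also lost with stricter class bounds (0.29, edgeR adjusted p = 0.0612) and with cells thinned before the classes were set (0.33, edgeR adjusted p = 0.0731). In CD8 T cells it was at 358, 350.1 and 356 CPM against 373, 448 and 457 CPM, again without overlap. There the log2 difference was 0.11 ± 0.09 (edgeR adjusted p = 0.476) and, without TMM scaling, 0.27 ± 0.11 (edgeR adjusted p = 0.101). Without replicate 1 it was 0.17 and passed (edgeR adjusted p = 0.0401).

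Tested directly, 0 of the 10 genes were called by edgeR's quasi-likelihood test for a Pdcd1 difference that itself differed between CD8 T and CD4 T, where 0% of all genes were, and DESeq2 called 0 of the 10 and 25 of all genes. Before adjustment 1 of the 10 was under 0.05, Bach2, with a CD8 T minus CD4 T difference of 0.44 ± 0.18 (edgeR adjusted p = 0.630). For Ptpn22 it was -0.23 ± 0.13 (edgeR adjusted p = 0.803), and without replicate 1 it was -0.33 and passed (edgeR adjusted p = 0.0448).

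Tyk2 did not pass in either class, with log2 differences of 0.34 ± 0.23 in CD8 T (edgeR adjusted p = 0.376) and 0.40 ± 0.19 in CD4 T (edgeR adjusted p = 0.196). Its CPM values were above those of Pdcd1-negative cells in 3 of 3 libraries of each class, with means of 14.3 ± 3.49 against 9.52 ± 3.34 CPM and 16.8 ± 2.69 against 11.9 ± 2.46 CPM (SD, n = 3), from sums of as few as 13 UMIs. Ikzf1 had log2 differences of -0.04 ± 0.07 in CD8 T (edgeR adjusted p = 0.771) and -0.19 ± 0.07 in CD4 T (edgeR adjusted p = 0.0822). Without replicate 1, Tyk2 in CD4 T (0.53) and Ikzf1 in CD4 T (-0.20) both passed, and Tyk2 in CD4 T also passed without likely doublets (0.51, edgeR adjusted p = 0.0404).

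Ptpn2 had log2 differences of -0.25 ± 0.08 in CD8 T (edgeR adjusted p = 0.0667) and -0.17 ± 0.08 in CD4 T (edgeR adjusted p = 0.177). In CPM it was higher in Pdcd1-positive cells in 1 of 3 libraries in each class, and the means were 55.5 against 60.6 CPM and 64.7 against 65.8 CPM. Ubash3a, Sh2b3, Ifih1 and Clec16a passed in neither class, and their Pdcd1-positive and Pdcd1-negative sums overlapped.

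The lists of pathway genes placed these differences among other genes. Of 15 antigen-receptor genes, 4 were higher and 1 lower in Pdcd1-positive CD8 T cells, and 5 and 1 in CD4 T cells, with a median difference of 0.19 in both classes. Over all genes 728 were higher and 755 lower in CD8 T, and 946 and 817 in CD4 T. Ubash3b was higher by 1.51 ± 0.30 in CD8 T and 1.12 ± 0.23 in CD4 T, the adaptor gene Sla by 0.69 ± 0.17 and 0.60 ± 0.16, and Pag1 changed by -0.86 ± 0.13 and -0.72 ± 0.11 (edgeR adjusted p of at most 0.0227). Ubash3b passed in both classes and its paralog Ubash3a in neither, and the difference between the paralogs was not tested. Among 17 cytokine-receptor genes, 3 were higher and 3 lower in CD8 T, and 4 and 3 in CD4 T. Stat3 was higher by 0.93 ± 0.08 and 0.68 ± 0.08 and the kinase gene Jak2 by 0.67 ± 0.17 and 0.64 ± 0.16 (edgeR adjusted p of at most 0.0207), while Jak2's relative Tyk2 did not pass. Lower genes in CD8 T were Socs1 (-0.78 ± 0.13) and Socs3 (-0.74 ± 0.08), and in CD4 T Stat5b (-0.44 ± 0.07) and Stat2 (-0.32 ± 0.10), with edgeR adjusted p of at most 0.0364. Of 9 RNA-sensing genes, 2 were lower in CD4 T cells, Ddx58 with -0.61 ± 0.12 and Trim25 with -0.40 ± 0.09 (edgeR adjusted p of at most 0.00673).

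Among 12 lineage factors, 6 were higher and 3 lower in Pdcd1-positive CD8 T cells, and 5 and 2 in CD4 T cells, with medians of 0.40 and 0.13. Lef1 and Tcf7, like Bach2, were lower, Lef1 by log2 differences of -1.82 ± 0.13 and -2.06 ± 0.13 and Tcf7 by -0.54 ± 0.13 and -0.53 ± 0.12. Prdm1, which encodes Blimp-1, was higher by 1.48 ± 0.21 and 1.34 ± 0.15, and Ikzf2, which encodes the Ikaros-family factor Helios, by 1.58 ± 0.27 and 1.32 ± 0.26 (edgeR adjusted p of at most 0.0109 for these 4 genes). Of 30 other homologs at type 1 diabetes loci, 27 were tested in this comparison, and 4 were higher and 6 lower in CD8 T and 7 and 7 in CD4 T, with a median of 0.07 in both. Rgs1 was higher by 0.89 ± 0.14 and Ctla4, which encodes an inhibitory receptor, by 0.62 ± 0.17 in CD8 T, and Il21 by 1.07 ± 0.29 and Il10 by 1.01 ± 0.30 in CD4 T. The interleukin-7 receptor gene Il7r was lower in both, at -1.10 ± 0.12 and -1.39 ± 0.12 (edgeR adjusted p of at most 0.0369 for these 5 genes). Il6ra was also lower in both, at -1.82 ± 0.27 and -0.98 ± 0.16 (edgeR adjusted p of at most 0.00115).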

How the data were processed

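The authors made 10x Genomics 3' libraries and aligned them with Cell Ranger 6.0.1 to the mouse genome mm10, and the deposited files hold whole-number UMI counts per gene and cell barcode, not normalized. The 3 libraries are replicates by their labels. The 10 genes, the class rules and the gene lists were chosen with earlier results of these data known. UMIs were summed per library and class where a sum held at least 10 cells (558022 UMIs in all macrophages, 34423864 in B cells). Sums were fitted with edgeR 4.0.16 in R 4.3.3 (TMM, filterByExpr, quasi-likelihood test, library as a block, Benjamini-Hochberg adjustment per comparison, threshold 0.05). The block was used because classes of a library come from the same pooled mice: the deviations of classes from their means correlated at 0.040 to 0.746 within libraries and at -0.64 to 0.43 between them. The fit was also run on simulated sums with changes set in B cells only. Those sums had no library differences, so that run does not bear on the block.

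Shares of cells used barcodes thinned to 2000 UMIs, with no test, since 3 libraries cannot give an exact p below 0.25. Intervals at 95% are exact conditional binomial ones. Doublets were kept in the main values and removed in an alternative (highest 7.6% per library of neighbour scores, after the study's settings). Named genes were the 10, the 3 with the highest Pearson r of log2(CPM + 1) to each over 15 sums among 5395 genes of at least 20 CPM, and from each list the 2 largest called changes in each direction. Fold changes of genes with 0 macrophage UMIs are bounds from a floor of 3 UMIs over the group. Alternatives were DESeq2 1.42.0, no TMM, no filter on low counts, no block, each library left out, the study's cell limits, purer and stricter classes, thinning before the classes were set and Malat1, mitochondrial and ribosomal genes left out. The reference cells first fixed for the Pdcd1 comparison, and 2 genes of the fixed lists, are not reported here: all cells of a class without a Pdcd1 UMI, first listed as another setting, became the reference after the data were examined, and the alternatives were rerun on it. Tables were handled in Python 3.11.15.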

Additional observations from a re-analysis of the deposited data

How the results depend on the processing

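Of 122 log2 differences of the 10 genes, the 68 that passed or that the text dwells on were followed under each setting. Another 54 had not passed, and 28 of these changed sign under at least 1 setting. Of 870 recomputed values of the 68, 750 kept their direction and their side of the threshold, 100 kept the direction without passing, 13 came to pass and 7 reversed, all of differences that had not passed. Sh2b3 in CD8 T minus Treg was 0.12 with the study's cell limits, 0.56 without likely doublets, 0.48 in purer classes and -0.14 to 0.074 with a library left out, the highest without replicate 3, against -0.05. Ikzf1 by Pdcd1 also reversed: in CD8 T it was 0.11 without TMM scaling and -0.089 to 0.0015 with a library left out, the highest without replicate 2, against -0.04, and in CD4 T it was 0.023 with cells thinned before the classes were set, against -0.19. The alternatives of the Pdcd1 comparison were chosen after the data were examined. Depth limits the macrophages most, with 68 cells, and the study's cell limits left a macrophage sum of at least 10 cells in replicate 1 only, so that arm then assumed the spread of the other classes. Purer classes, stricter bounds and thinning left 8, 7 and 5 macrophages in replicate 2, too few for a sum, so sums came from replicates 1 and 3. Without the library block (the replicate block), 0 of the 10 genes were called for CD8 T against CD4 T, 1 for CD8 T against Treg, 0 for CD4 T against Treg, 4 for Treg against B, and 0 by Pdcd1 in CD8 T, in CD4 T and in both together, against 2, 3 and 5. It moved no other count by over 1.5 times. With the study's cell limits, 3 were called for CD8 T, CD4 T and Treg against macrophages, 2 for B against macrophages, 0 for CD4 T against Treg, 1 by Pdcd1 in CD8 T, and 36 over the 10 pairs against 55. With cells thinned before the classes were set, 4 were called for each T class against macrophages, 0 for CD4 T against Treg, 1 by Pdcd1 in each of CD8 T and CD4 T, and 2 in both. Without likely doublets 2 were called for CD4 T against Treg. Without TMM scaling 1 was called by Pdcd1 in CD8 T. Without thinning, 5 of the 10 genes kept the class with the highest share of cells. The causes of these changes were not tested.

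With each library left out in turn, the counts ran from 1 to 3 for CD8 T against CD4 T, 0 to 3 for CD8 T against Treg, 0 to 2 for CD4 T against Treg, 5 to 8 for Treg against B, 1 to 3 and 2 to 5 by Pdcd1 in CD8 T and CD4 T, 3 to 8 in both, 0 to 1 for the difference between the Pdcd1 effects, and 42 to 58 over the 10 pairs. The lowest counts came without replicate 2 or 3. Ptpn22, Ubash3a, Sh2b3 and Ikzf1 kept their calls for CD8 T and CD4 T against B under all 13 alternatives.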

Other observations

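Cells that passed the limits but met no class rule numbered 2079, 3504 and 4827 in replicates 1, 2 and 3. In these cells the mean level was 279 CPM for Ptpn22, 19.9 for Ubash3a, 64.9 for Ptpn2, 19.4 for Sh2b3, 12.0 for Tyk2, 78.3 for Bach2, 118 for Ikzf1, 44.9 for Ikzf3, 10.9 for Ifih1 and 8.36 for Clec16a. Their general T markers summed to 1765 to 2067 CPM and their CD8 T list to 1702 to 2886 CPM, the highest of the lists. The Treg list reached 558 to 720 CPM, the plasma-cell list 419 to 654 CPM and the B list 292 to 462 CPM. Their endocrine markers summed to 322 to 1500 CPM and their dendritic-cell markers to 69.4 to 131 CPM, so they are a mixture.

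Among cells with no Cd3e and at most 1 Cd79a UMI, Ifih1 was also read by the number of C1qa plus C1qb UMIs. Cells with 0 such UMIs, 706, 954 and 1385 in the 3 libraries, had 17.2, 17.0 and 14.4 CPM of Ifih1. Those with 1 to 4 had 0, 48.0 and 54.7 CPM, from 6, 3 and 6 cells. The range of 5 to 9, the lowest inside the macrophage class, had 139, 0 and 25.2 CPM, from 2, 3 and 3 cells with 3, 0 and 1 Ifih1 UMIs. Cells with at least 10 and under 50 had 1249, 118 and 983 CPM, from 17, 4 and 18 cells, and cells with 50 or more had 684, 2029 and 427 CPM, from 12, 3 and 6 cells. The order of the last 2 groups thus differed between libraries.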
